A study of Homo sapiens with 6 samples.

Results

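The comparison described here sets 2 libraries of PC9-BrM4 cells against 2 libraries of parental PC9 cells, 4 of the 6 libraries of the series. A gene entered it with a TPM (a length-normalised share of the transcripts of a library, scaled to one fixed total) of at least 1 in at least 2 of these 4 libraries, which 14333 of the 26475 genes of the deposited table did. PC9 is an established human line from a lung adenocarcinoma, and its EGFR gene carries an activating mutation. PC9-BrM4 and PC9-AMG are named as derivatives of it, and all 3 were cultured in MGS, so no group was kept outside that culture. None of the abbreviations BrM4, AMG and MGS is expanded in the labels. By common use in this field, BrM marks cells selected for growth in the brain, and from what is known of the work MGS stands for glial cells of the mouse on a soft substrate. No label says whether PC9-BrM4 is 1 clone. The 2 PC9-AMG libraries enter as values for orientation and share in the estimate of the spread. Their values are given for some genes only, and a difference without them may be shared by PC9-AMG.

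A metastatic derivative can differ from its parent through inherited changes in gene expression, through gains and losses of chromosome segments, and through the responses of the cells to their surroundings. Surface receptors and transporters set which signals and nutrients a cell takes up. Secreted proteases, protease inhibitors and matrix proteins shape the tissue around it, and transcription factors and non-coding RNAs keep a programme of expression in place. Messenger RNA levels show the sum of these influences and do not separate them.

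No read counts were used here and the depth is unknown; the coverage of a gene at 1 TPM was 0.606 to 0.664 reads per base in the 4 libraries. Between 13988 and 14105 genes reached 1 TPM in each of them. Across the tested genes, Pearson's r of log2(TPM + 1) was 0.990 between the PC9 libraries, 0.987 between the PC9-BrM4 libraries, and 0.966 to 0.967 across the groups, as a description, since genes are no replicates. The PC9-BrM4 libraries stood apart from each other by transcript length. Their difference rose with length (Spearman 0.478 over 13459 genes, against 0.0356 between the PC9 libraries), and the median of the 1019 genes of 8 kb or longer, relative to all tested genes, was 0.11 against PC9 in library 1 and -0.12 in library 2. The difference between the groups had little trend with length (Spearman 0.0364).

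Of the 6 epithelial markers EPCAM rose (from 705 and 698 TPM in the parental libraries to 846 and 856 TPM; adjusted p = 0.04986 in limma, and 0.1342 to 0.2824 with 1 library left out), KRT7, KRT18 and KRT19 fell, and CDH1 and KRT8 were not called. The 6 summed to 15200 and 15500 TPM in PC9 and to 11400 and 11900 TPM in PC9-BrM4. NKX2-1, SFTPB and SFTPC, defining markers of lung epithelium, were below 1 TPM in all 4, as was every other listed lung marker except NAPSA (0.839 to 1.69 TPM). Of the 8 astrocyte markers 3 were tested and 2 rose, SOX9 and SLC1A3, and the sum over the list was 60.7 to 65.8 TPM in PC9 and 77.5 to 84.0 TPM in PC9-BrM4. GFAP and S100B were listed at 0 in all 4 libraries. Of the 8 microglial and macrophage markers 2 were tested and 1 rose, ITGAM, with sums of 10.4 to 10.8 and 16.5 to 18.2 TPM, and AIF1, CX3CR1, TYROBP, C1QA and C1QB were listed at 0 throughout. The fibroblast sum was 9.38 to 11.2 TPM in PC9 and 16.4 to 18.1 TPM in PC9-BrM4, nearly all of it COL1A1, which was not called, with LUM and THY1 listed at 0. No member of the neuronal, oligodendrocyte or endothelial lists was called. The part of RNA from other cells in these values was not tested.

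In PC9-BrM4, 1503 genes (10.5% of those tested) were higher and 963 (6.72%) lower than in PC9, 2466 in all (17.2%), at a Benjamini-Hochberg adjusted p under 0.05 in limma, a linear model fitted to log2(TPM + 1) of all tested genes. In what follows a gene rose, fell, was higher or was lower only if it was called in this way, and every difference is PC9-BrM4 minus PC9 on the log2(TPM + 1) scale, which understates the change of genes at low TPM. In bulk RNA, fewer cells of a kind and less RNA per cell cannot be told apart. Whether both libraries of a line came from separate cultures is not stated in the labels, and the p-values measure the spread between libraries, which may be technical. Most of the called differences were small: 615 genes differed by 2-fold or more, 341 higher (2.38%) and 274 lower (1.91%), and 71 and 39 by 4-fold or more. The balance of the directions moved with the scaling, since TPM are shares of one total. The share of higher genes among those called was 60.9%, and centring each library on its median gave 954 higher and 1251 lower genes, a share of 43.3%; among the 2-fold genes it gave 274 higher and 345 lower.

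Leaving out 1 library at a time lowered the number called, to 1044 and 1004 for PC9 libraries 1 and 2 and to 1231 and 1768 for PC9-BrM4 libraries 1 and 2. Called in every one of these 4 fits were 691 genes (4.82% of those tested), 385 higher and 306 lower, and they included 432 of the 615 genes with a 2-fold difference. Each called gene named from here on is one of the 691 unless a lost call is given, and a range of counts for a class spans the same 4 fits. Where 4 counts are given for them, their order is without PC9 library 1, PC9 library 2, PC9-BrM4 library 1 and PC9-BrM4 library 2. The share called grew with expression, from 12.7% of the genes under 5 TPM in the higher group to 27.4% of those at 100 TPM or more, while the share with a 2-fold difference went from 7.61% to 2.3%. Of the protein-coding genes 17.8% were called and of the long non-coding and antisense RNAs 12.9%.

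**Figure D1:**
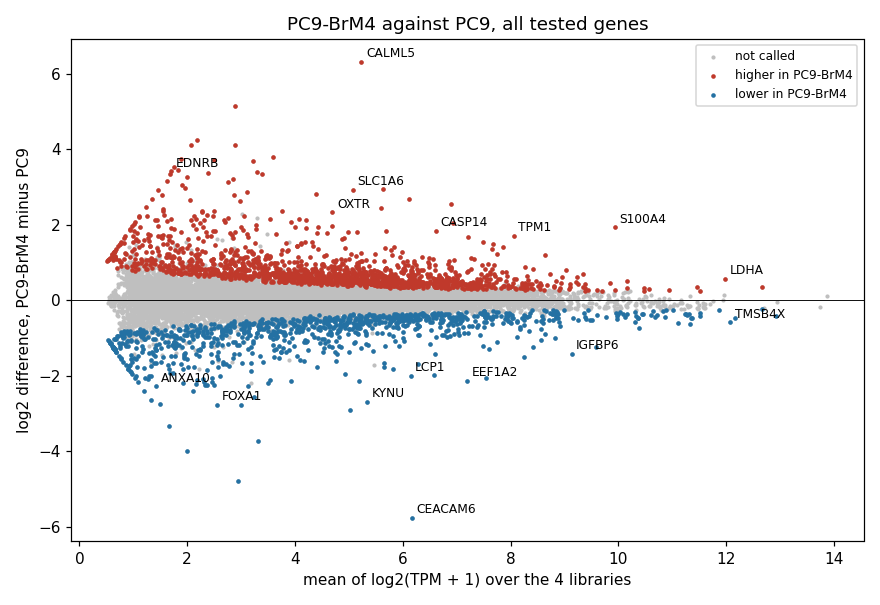
Each point is 1 of the 14333 tested genes, with its mean log2(TPM + 1) over the 4 libraries on the horizontal axis and its log2 difference, PC9-BrM4 minus PC9, on the vertical axis. Red points are the 1503 higher genes, blue points the 963 lower genes and grey points the genes not called; large differences lie mostly at low and middle levels.

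Some genes were nearly silent on one side. Genes with a clone, locus, read-through or small-RNA name (959 tested, 132 called) were left out of the lists of switched genes and of the largest changes. Among the others, called genes below 0.5 TPM in both PC9 libraries and above 5 TPM in both PC9-BrM4 libraries numbered 12. They were H19, CTAG2, CYP1A1, C1orf110, BMP7, COL6A3, EDNRB, RARRES2, XG, CABP4, MAP1LC3A and WNT6. The 3 genes with the opposite pattern were PLA2G4B, PTN and PELI2. PLA2G4B overlaps a read-through gene, and shared reads make its value uncertain; it was not called without PC9-BrM4 library 1 (adjusted p = 0.142) or library 2 (0.12). With the same names left out, the largest rise and the largest fall were those of CALML5 (log2 difference 6.32) and CEACAM6 (-5.77). Both lay outside the rule for switched genes, since both genes were above 0.5 TPM in all 4 libraries. The switched genes lie on many chromosomes. H19 is a long non-coding RNA, and the proteins encoded by others include a bone morphogenetic protein, a Wnt ligand, a collagen chain, a receptor, a cytochrome P450 and an autophagosome protein.

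The 250 bases before the start of 1 RefSeq transcript per gene (build GRCh38.p14) are shown for 4 of the switched-on genes, in falling order of their CG pairs, because such genes differed widely in this feature. Sequences run 5′ to 3′ on the strand of the gene, and capitals mark each CG. They are WNT6 at chr2:218859555-218859804 on the plus strand, and RARRES2 at chr7:150341630-150341879, EDNRB at chr13:77919683-77919932 and C1orf110 at chr1:162861176-162861425 on the minus strand. The gene spans of the deposited tables (hg38) follow another annotation, so that these starts lie a short way outside the span of WNT6 and inside that of RARRES2. Those of EDNRB and C1orf110 lie well inside the span, downstream of its outermost start, and other starts of these genes, another entry for EDNRB among them, were not examined.
WNT6: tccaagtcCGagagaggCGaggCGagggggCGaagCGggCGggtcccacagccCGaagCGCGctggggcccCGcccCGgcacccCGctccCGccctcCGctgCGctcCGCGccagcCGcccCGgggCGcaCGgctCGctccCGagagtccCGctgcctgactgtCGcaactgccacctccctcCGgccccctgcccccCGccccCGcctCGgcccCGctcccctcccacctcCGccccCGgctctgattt
RARRES2: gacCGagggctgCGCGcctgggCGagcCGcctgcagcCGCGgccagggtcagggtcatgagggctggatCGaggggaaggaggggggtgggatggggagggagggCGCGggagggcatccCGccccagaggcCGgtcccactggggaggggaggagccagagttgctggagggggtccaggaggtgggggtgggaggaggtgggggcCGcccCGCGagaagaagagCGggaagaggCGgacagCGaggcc
EDNRB: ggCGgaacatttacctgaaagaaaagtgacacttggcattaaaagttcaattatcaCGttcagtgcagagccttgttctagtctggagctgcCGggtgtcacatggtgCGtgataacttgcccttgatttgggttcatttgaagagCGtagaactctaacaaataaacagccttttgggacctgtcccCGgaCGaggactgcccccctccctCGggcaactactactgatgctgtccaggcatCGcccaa
C1orf110: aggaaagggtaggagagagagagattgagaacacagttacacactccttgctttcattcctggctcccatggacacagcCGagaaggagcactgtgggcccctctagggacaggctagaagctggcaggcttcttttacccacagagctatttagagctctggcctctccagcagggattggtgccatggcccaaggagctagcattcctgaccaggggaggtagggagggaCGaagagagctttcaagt
The 4 windows held 32, 18, 9 and 2 CG pairs, and their GC content was 79.2%, 74.8%, 50% and 54.8%. A promoter was available for 9 of the 12 switched-on genes, of which 3 were CpG-rich (an observed to expected CpG ratio of at least 0.6 and a GC content of at least 50% in the window of 300 bases around the start); among all tested genes with a promoter, 8428 of 10712 (78.7%) were. The 3 were WNT6, RARRES2 and EDNRB, with ratios of 0.864, 0.619 and 0.665. An entry was found for 75.0% of the switched-on genes and for 80.1% of the 13374 tested genes looked up. Of the genes 2-fold higher and 2-fold lower 79.1% and 72.3% had one, and 56.7% and 44.0% of those were CpG-rich. With under 80% covered, the check of these sets against all genes is void, and the shares are a description.

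EDNRB, the endothelin receptor B gene on chromosome 13 (77895481 to 77975529, hg38), was listed at 0 in both PC9 libraries and was at 10.5 and 8.83 TPM in PC9-BrM4 (log2 difference 3.41, SE 0.22, adjusted p = 6.353e-06). RARRES2, which encodes the chemoattractant chemerin, went from 0 in both PC9 libraries to 8.74 and 9.76 TPM (3.36). Both genes met the rule for CpG-rich in the window around the start, to which that rule was applied. RARRES2 had the higher GC content there. The rule was not applied to the upstream windows printed above. PC9-AMG cells had 1.04 and 1.06 TPM of EDNRB and were listed at 0 for RARRES2 in both libraries. C1orf110 was at 11.3 and 9.68 TPM against 0 in both PC9 libraries (3.52), and XG, a blood group antigen gene near the tip of the X chromosome, at 8.91 and 7.61 TPM against 0.0782 and 0 (3.15). That the groups did not overlap in these 4 genes follows from the rule for switched genes and is no further result. Among all tested genes 61.5% had no overlap. The 2 PC9-BrM4 libraries were close to each other in each of the 4 genes.

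Secreted signals were among the switched genes in both directions. BMP7, a bone morphogenetic protein, was at 0.402 and 0.37 TPM in PC9 and at 10.8 and 9.17 TPM in PC9-BrM4 (2.98, SE 0.20, adjusted p = 8.791e-06). NOG, which encodes the BMP antagonist noggin, rose as well, from 14.3 and 17.8 TPM to 52.3 and 51.3 TPM (1.64), while ID1, a transcriptional regulator that BMP signals induce in many cells, fell from 78.5 and 74.1 TPM to 29.9 and 35.2 TPM (-1.21). PC9-AMG had 40.7 and 40.6 TPM of ID1, nearer to PC9-BrM4 than to PC9. WNT6 was at 0.217 and 0.342 TPM in PC9 and at 5.06 and 6.26 TPM in PC9-BrM4 (2.38). PTN, the gene of the growth factor pleiotrophin, was at 8.23 and 9.85 TPM in PC9 and was at 0 in each PC9-BrM4 library. PELI2, an E3 ubiquitin ligase of Toll-like receptor signalling, fell from 6.65 and 6.03 TPM to 0.0833 and 0.0854 TPM (-2.76). PC9-AMG had intermediate levels of these switched genes: 3.68 and 3.12 TPM of BMP7, 2.14 and 1.53 of WNT6, 1.71 and 2.13 of PTN, and 1.8 and 1.44 of PELI2.

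Further genes rose from a level above the limit for a switched gene. KRT5, the keratin of basal epithelial cells, was at 17.5 and 16.2 TPM in PC9 and at 148 and 127 TPM in PC9-BrM4 (log2 difference 2.95, SE 0.12, adjusted p = 6.624e-07). CASP14, a caspase of keratinocyte cornification, rose from 55.1 and 47.0 TPM to 204 and 166 TPM (1.84), and ZNF750, a regulator of epidermal differentiation, from 0.984 and 0.988 TPM to 5.12 and 3.32 TPM (1.37). The PC9-AMG libraries had 21.6 and 19.6 TPM of KRT5 and 58.3 and 46.8 TPM of CASP14, values that overlap or lie just above those of PC9.

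GJA5, a gap-junction connexin, rose from 1.12 and 1.45 TPM to 20 and 17.7 TPM (3.12, SE 0.21, adjusted p = 8.11e-06). SUSD2, a membrane protein with a sushi domain, rose from 2.01 and 1.24 TPM to 33.1 and 32.3 TPM (3.70), and BST2, the interferon-inducible antiviral protein tetherin, from 3.19 and 1.42 TPM to 21 and 23.6 TPM (2.87). FHL1, a LIM-domain protein best known from muscle, rose from 1.84 and 2.21 TPM to 34.5 and 27.4 TPM (3.39). FHL1 was at 9.8 and 10.9 TPM in PC9-AMG, between the other groups. The secreted protein gene MIA rose by 3.20 and ANKRD35 by 3.37. EFHD1, a calcium-binding protein of mitochondria, rose from 6.15 and 7.76 TPM to 59.0 and 50.9 TPM (2.82), and CYP27A1, a sterol hydroxylase of mitochondria, from 2.29 and 1.34 TPM to 16.8 and 19.4 TPM (2.78). LGALS7B rose by 3.25, but it has a near-identical copy, LGALS7, which makes its value uncertain.

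The larger falls included an enzyme, an elongation factor and several signalling genes. KYNU, the kynureninase gene of tryptophan breakdown, fell from 108 and 97.3 TPM in PC9 to 14.1 and 15.8 TPM in PC9-BrM4 (log2 difference -2.70, SE 0.12, adjusted p = 6.897e-07). EEF1A2, an elongation factor isoform normally found in neurons and muscle, fell from 297 and 313 TPM to 69.9 and 67.8 TPM (-2.13, SE 0.10, adjusted p = 9.585e-07). PC9-AMG had 75.8 and 85.2 TPM of KYNU and 304 and 255 TPM of EEF1A2, all above both PC9-BrM4 libraries.

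IFI16, a sensor of DNA, fell from 30.6 and 31.2 TPM to 5.66 and 6.77 TPM (-2.15), and SLAMF7, a receptor best known from immune cells, from 10.1 and 8.84 TPM to 1.22 and 1.48 TPM (-2.16). PKIB, an inhibitor of protein kinase A, fell from 22.5 and 21.6 TPM to 2.61 and 3.19 TPM (-2.57). The copine gene CPNE7 fell by 2.27, ARMCX2 by 2.25 and the transcription factor gene KLF9 by 2.11. MT1A, a metallothionein, fell from 27.2 and 19.5 TPM to 4 and 4.55 TPM (-2.19); it belongs to a family of close copies, which makes its value uncertain. MYH16, a jaw-muscle myosin gene disrupted in humans, was at 71.7 and 79.3 TPM in PC9 and fell to 18.6 and 14.5 TPM (-2.13).

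**Figure D2:**
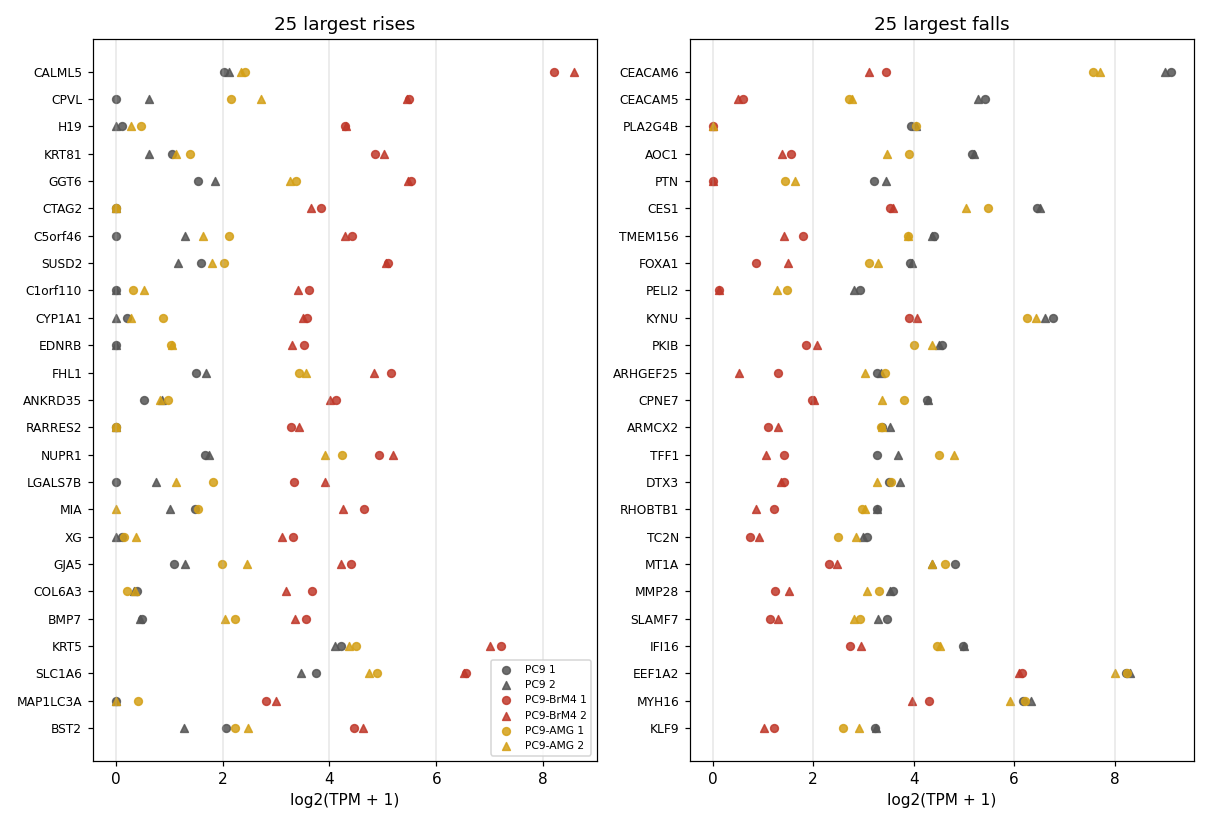
The 25 largest rises (left) and the 25 largest falls (right) among called genes whose higher group averaged 5 TPM or more and whose groups did not overlap. Clone, locus, read-through and small-RNA names were left out. Each symbol is 1 library, placed at its log2(TPM + 1); circles are library 1 and triangles library 2 of PC9 (grey), PC9-BrM4 (red) and PC9-AMG (yellow). Red lies wholly on one side of grey in each row, as the choice of genes requires.

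With the same kinds of names left out, 6 of the 10 genes that gained the most TPM rose by less than 2-fold. S100A4 (log2 difference 1.93), TPM1, KLK7 and CALML5 rose by more. The 10 genes that lost the most all fell by less than 2-fold. LDHA, lactate dehydrogenase A, gained the most, from 3395 and 3234 TPM in PC9 to 5089 and 4787 TPM in PC9-BrM4 (log2 difference 0.57, SE 0.07, adjusted p = 0.0003708). The tropomyosin gene TPM1 rose from 145 and 147 TPM to 489 and 473 TPM (1.71), the kallikrein protease gene KLK7 from 257 and 270 TPM to 611 and 590 TPM (1.18), and KLK5 by 0.50. ACTB (0.35), HSP90AA1 (0.35) and ENO1 (0.24) gained by small steps that depended on single libraries. Without PC9 library 1 or library 2 none of these 3 was called (adjusted p between 0.0602 and 0.295), and without PC9-BrM4 library 1 HSP90AA1 and ENO1 were not (0.0612 and 0.0846); ENO1 also lost its call without PC9-BrM4 library 2 (0.0818).

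The ferritin light chain gene FTL lost the most, from 9012 and 8870 TPM to 6395 and 7116 TPM (-0.41, adjusted p = 0.002715). The thymosin gene TMSB4X fell by 0.59 and the simple-epithelial keratin genes KRT7, KRT18 and KRT19 by 0.63, 0.61 and 0.47. KRT18 was at 2751 and 2710 TPM in PC9 and at 1776 and 1794 TPM in PC9-BrM4. Its partner KRT8 was not called (-0.18, adjusted p = 0.0925). These 3 keratins fell while KRT5 rose, and their levels remained far above it. The 100 most abundant genes held 28.9% of the TPM in both PC9 libraries and 25.6% and 27.5% in the PC9-BrM4 libraries.

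Genes were next grouped into 52 classes by family name or function, and each class was read against the 10.5% higher and 6.72% lower among all tested genes. The position of the members on the chromosomes was not taken into account. Among solute carriers, the main family of membrane transporters, 45 of 219 tested members rose (20.5%) and 7 fell (3.20%), with a median log2 difference of 0.19 against 0.09 for all tested genes. Median centring gave 35 and 11, and the 4 fits without 1 library gave 20, 20, 18 and 35 higher and 4, 4, 6 and 5 lower. SLC1A6, a glutamate transporter of Purkinje neurons, was at 12.4 and 10.1 TPM in PC9 and at 92.8 and 90.7 TPM in PC9-BrM4 (2.93, SE 0.13, adjusted p = 7.454e-07). SLC1A3, the astrocytic glutamate transporter, went from 0 in both PC9 libraries to 3.44 and 2.12 TPM, SLC5A1, a sodium-coupled glucose transporter, from 0.128 and 0 to 2.83 and 2.77 TPM, and SLC15A3, a peptide and histidine transporter, from 0.968 and 2.18 to 7.83 and 9.35 TPM. SLC16A7, a monocarboxylate transporter, fell from 2.70 and 2.23 TPM to 0.0711 and 0.0313 TPM (-1.72).

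Among proton pumps and other ATPases with the aquaporins, 7 of 34 rose and 1 fell, and 6 to 7 rose in the 4 fits without 1 library. Of 77 ion channels 10 rose and 9 fell (5 and 10 with median centring), and without 1 library 4, 5, 5 and 5 rose and 3, 3, 6 and 5 fell. The potassium channel subunit KCNS3 fell from 57.8 and 60.5 TPM to 15.4 and 13.7 TPM (-1.95), and the GABA receptor subunit GABRE from 3.98 and 3.57 TPM to 0.0748 and 0.223 TPM (-2.06). KCNF1, another potassium channel subunit, rose by 1.38.

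Of 80 G protein-coupled receptors 10 rose and 10 fell (7 and 12 with median centring), 12.5% each way against 10.5% and 6.72% of all tested genes; without 1 library 5, 5, 6 and 9 rose and 6, 8, 9 and 8 fell. Besides EDNRB, the oxytocin receptor gene OXTR rose from 10.5 and 10.6 TPM to 62.0 and 52.6 TPM (log2 difference 2.33, SE 0.13, adjusted p = 2.979e-06) and the neurotensin receptor gene NTSR1 from 1.80 and 2.42 TPM to 11.4 and 13.6 TPM (2.12). ACKR3, a scavenging receptor for CXCL12, fell from 38.7 and 38.3 TPM to 9.35 and 11.9 TPM (-1.77) and LGR6, a receptor for R-spondins, by 1.81. 

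Of 67 cytokine and growth factor receptors 16 rose and 6 fell (12 and 7 with median centring; 7, 8, 6 and 12 higher and 3, 3, 6 and 5 lower without 1 library). IL2RG, the common gamma chain, was at 1.27 and 0.783 TPM in PC9 and at 8.95 and 7.99 TPM in PC9-BrM4 (2.23). ROR1, a receptor for Wnt ligands, rose by 1.52 and the decoy receptor gene IL1R2 by 1.36. LIFR, the receptor for leukaemia inhibitory factor, fell from 16.3 and 16.7 TPM to 4.65 and 2.98 TPM (-1.88), and IL1RL1, the receptor of an alarmin cytokine, fell by 1.67. Of 28 TNF receptors and ligands 6 rose (21.4%) and 2 fell (7.14%), and median centring gave 4 and 3. Without 1 library 3, 3, 3 and 5 rose and 1, 1, 2 and 2 fell. CD40 fell from 22.2 and 23.7 TPM to 6.36 and 3.20 TPM (-2.10), while TNFRSF1B rose by 1.11.

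Of 25 semaphorins, plexins and neuropilins, which guide axons among other roles, 6 fell (24.0%) and 2 rose. In the fits without 1 library 2, 2, 3 and 2 fell and 1, 1, 1 and 2 rose, so the excess of falls was 1 or 2 genes and was gone without PC9-BrM4 library 2. SEMA3B was at 133 and 146 TPM in PC9 and at 41.4 and 44.0 TPM in PC9-BrM4 (log2 difference -1.68), and SEMA3A fell from 4.09 and 3.88 TPM to 0.849 and 0.641 TPM (-1.52). PLXND1, a plexin receptor, rose by 1.05. Among neural adhesion molecules 8 of 35 rose and 6 fell (6, 5, 4 and 8 and 3, 3, 4 and 3 without 1 library). NEO1, the netrin receptor neogenin, fell from 2.62 and 2.49 TPM to 0.259 and 0.139 TPM (-1.57). LYPD6B, a membrane-anchored LY6 protein, rose from 8.70 and 6.90 TPM to 39.7 and 35.3 TPM (2.13). PSCA, of the same fold, fell from 561 and 530 TPM to 250 and 275 TPM (-1.05).

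Of 58 collagens and other matrix proteins 16 rose (27.6%) and 7 fell (13 and 8 with median centring; 11, 13, 10 and 13 higher and 4, 4, 6 and 4 lower without 1 library). COL6A3, a collagen VI chain, went from 0.314 and 0.258 TPM to 11.7 and 8.07 TPM (3.06), and its partner chain COL6A2 was at 148 and 151 TPM in PC9 and at 268 and 267 TPM in PC9-BrM4 (0.84). FBLN1, the matrix protein fibulin-1, rose from 105 and 103 TPM to 305 and 303 TPM (1.53, SE 0.11, adjusted p = 1.851e-05). The lysyl oxidase genes, whose products crosslink collagen, moved apart, LOXL4 rising by 1.54 and LOX falling by 1.29. COL17A1, a collagen of hemidesmosomes, fell from 90.5 and 93.3 TPM to 41.5 and 36.2 TPM (-1.22), and TGFBI fell by 0.76.

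Among 29 serpins and other protease inhibitors 11 fell (37.9%) and 6 rose, and median centring gave 11 and 3. The falls numbered 8, 7, 6 and 9 without 1 library and the rises 1, 3, 3 and 2. WFDC2, a whey-acidic-protein inhibitor used as an ovarian cancer marker, was at 523 and 497 TPM in PC9 and at 164 and 193 TPM in PC9-BrM4 (log2 difference -1.51, SE 0.10, adjusted p = 6.087e-06). The related gene WFDC3 fell from 159 TPM in both libraries to 51.6 and 65.3 TPM (-1.44), and the cystatin gene CST1 from 4.72 and 3.15 TPM to 0 and 0.486 TPM (-2). Of 33 complement and coagulation genes 9 fell (27.3%) and 3 rose, and 4, 5, 7 and 5 fell and 0, 1, 0 and 2 rose without 1 library. The C1 protease gene C1R fell from 25.1 and 27.2 TPM to 13.7 and 13.6 TPM (-0.89) and C1S by 0.87.

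The serine proteases at the membrane or outside the cell split into 9 higher and 8 lower of 36 (6, 7, 6 and 7 and 6, 6, 4 and 6 without 1 library). DPP4, a dipeptidyl peptidase of the cell surface, rose from 1.73 and 1.24 TPM to 12.4 and 11.3 TPM (2.37), and HTRA1 from 9.26 and 9.54 TPM to 28.9 and 27.2 TPM (1.48). PRSS22 fell by 0.99 and TMPRSS4 by 0.93. Of 51 growth factors and their binding proteins 11 rose and 11 fell (8 and 13 with median centring; 7, 9, 8 and 10 higher and 7, 7, 9 and 9 lower without 1 library). IGFBP6 and IGFBP7, which bind insulin-like growth factors, fell from 906 and 920 TPM to 321 and 366 TPM (-1.41) and from 89.2 and 94.5 TPM to 26.8 and 26.2 TPM (-1.76). The stem cell factor gene KITLG fell by 1.37 and VEGFC by 1.09, while INHBB, an activin subunit, rose by 0.95.

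Of the 20 interleukins and chemokines tested, 8 rose and 2 fell (7 and 3 with median centring; 6, 6, 4 and 6 higher and 1, 1, 2 and 2 lower without 1 library). IL32 rose from 64.3 and 62.0 TPM to 120 and 155 TPM (1.10), and IL18 fell from 53.6 and 53 TPM to 27.2 and 28.6 TPM (-0.91). Of 60 innate sensors and their signalling proteins 11 rose and 5 fell, but median centring gave 8 and 9, and without 1 library 4, 6, 6 and 9 rose and 1, 2, 6 and 3 fell. TLR4, the receptor for lipopolysaccharide, was at 0.429 and 0.342 TPM in PC9 and at 5.06 and 3.82 TPM in PC9-BrM4 (1.96), and NOD2, a cytosolic sensor, rose by 1.10. IRF5 fell by 1.10.

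**Figure D3:**
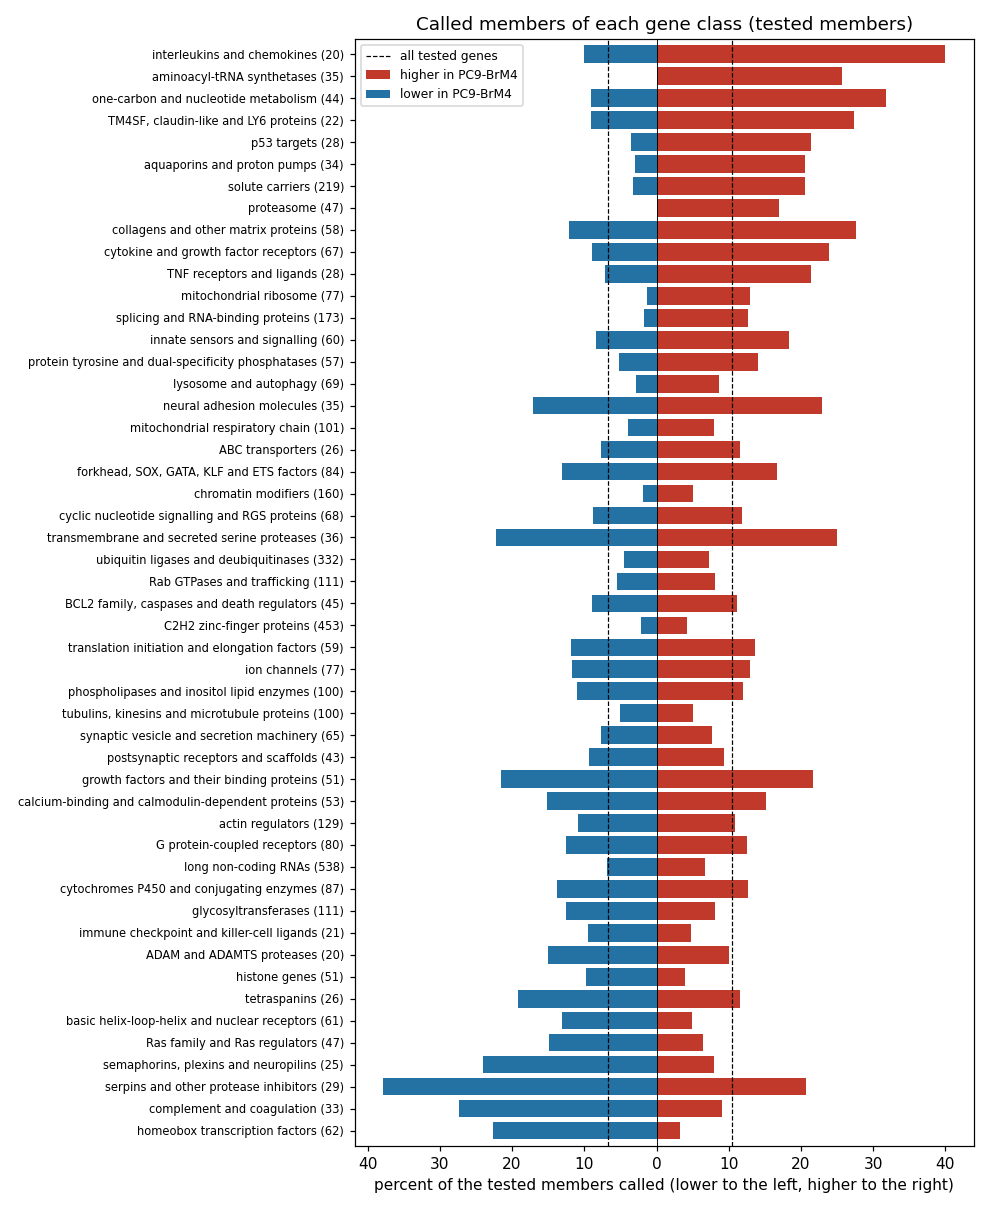
For the gene classes shown, each with at least 20 tested members (number in parentheses), the bar to the right is the percent of tested members called higher in PC9-BrM4 and the bar to the left the percent called lower. Dashed lines mark 10.5% and 6.72%, the shares among all tested genes; interleukins and chemokines reach 40% to the right and serpins and other protease inhibitors 37.9% to the left.

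In the cytoskeleton 14 of 129 actin regulators rose and 14 fell (8 and 17 with median centring). That was 10.9% each way, against 10.5% higher and 6.72% lower among all tested genes. Without 1 library 5, 7, 7 and 18 rose and 7, 8, 10 and 10 fell. LCP1, the actin-bundling protein L-plastin, fell from 139 and 142 TPM to 35.5 and 33.0 TPM (log2 difference -2.01, SE 0.10, adjusted p = 1.139e-06), and FLNC, a filamin of muscle, from 83.2 and 94.9 TPM to 32.0 and 23.5 TPM (-1.66). TAGLN, a calponin-related protein of smooth muscle, rose by 1.23 and PDLIM2 by 1.03.

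Of 111 Rab GTPases and other genes of vesicle traffic 9 rose (8.11%) and 6 fell (5.41%), and median centring gave 8 and 10. Both shares lay below those of all tested genes, 10.5% and 6.72%. DENND2A, an activator of Rab GTPases, rose from 5.54 and 6.16 TPM to 22.5 and 21.7 TPM (1.75), and SYTL4, a Rab27 effector of secretion, by 1.63. RAB27A itself fell from 17.4 and 14.9 TPM to 7.33 and 7.47 TPM (-1.03). In lipid signalling SPHK1, the kinase that makes sphingosine-1-phosphate, rose from 6.23 and 8.14 TPM to 28.1 and 32.7 TPM (1.95, SE 0.16, adjusted p = 3.697e-05). S1PR3, a receptor for that lipid, fell by 0.95.

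All 9 called among the 35 aminoacyl-tRNA synthetases rose (25.7%), with a class median of 0.28; median centring left 4, and 3, 3, 3 and 8 were called without 1 library. GARS, the glycyl-tRNA synthetase, was at 114 and 110 TPM in PC9 and at 203 and 185 TPM in PC9-BrM4 (0.79). PC9-AMG had 181 and 184 TPM of GARS, near PC9-BrM4. Of 44 genes of one-carbon and nucleotide metabolism 14 rose (31.8%) and 4 fell; median centring gave 9 and 5, and without 1 library 5, 3, 7 and 12 rose and 2, 2, 2 and 3 fell. CTPS1, which makes CTP, rose from 28.8 and 25.9 TPM to 46.4 and 45.4 TPM (0.73), and NAMPT, the entry enzyme of NAD salvage, fell from 243 and 232 TPM to 139 and 112 TPM (-0.92). CTPS1 was at 62.1 and 56.0 TPM in PC9-AMG, above PC9-BrM4.

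Proteasome subunits and assembly factors rose in 8 of 47 cases and fell in 0. These calls depended on single libraries, with 0, 2, 2 and 6 higher without 1 library, and median centring left 3. Of 173 splicing and RNA-binding proteins 22 rose (12.7%) and 3 fell (1.73%), against 10.5% and 6.72% of all tested genes. Without 1 library 6, 2, 4 and 19 rose and 1, 1, 2 and 1 fell, and median centring gave 7 and 4. RBM38, an RNA-binding protein that p53 induces, rose from 35.7 and 36.1 TPM to 84.0 and 82.7 TPM (log2 difference 1.19), and HNRNPA1 fell from 593 and 575 TPM to 394 and 382 TPM (-0.59).

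Homeobox transcription factors, which specify position and lineage, leaned downwards. Of 62 tested 14 fell (22.6%) and 2 rose (3.23%), with a class median of -0.21, and median centring gave 17 and 2. No single member was called in all 4 fits without 1 library, where 4, 2, 6 and 5 fell and 0, 1, 0 and 1 rose. HOXD8 was at 1.73 and 1.95 TPM in PC9 and at 0.184 and 0.288 TPM in PC9-BrM4 (-1.20, adjusted p = 0.008825), and without PC9 library 2 or PC9-BrM4 library 1 it was not called (0.0508 and 0.053).

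Among forkhead, SOX, GATA, KLF and ETS factors 14 of 84 rose (16.7%) and 11 fell (13.1%), against 10.5% and 6.72% of all tested genes. Median centring turned the counts to 10 and 14, and without 1 library 5, 4, 5 and 10 rose and 5, 6, 8 and 6 fell. ELF3, an epithelial ETS factor, fell from 317 and 314 TPM to 144 and 149 TPM (log2 difference -1.10), SOX4 fell by 0.86, and GATA3 rose from 58.1 and 55.4 TPM to 92.0 and 92.5 TPM (0.69). PC9-AMG had 174 and 159 TPM of ELF3, near PC9-BrM4. Of 453 C2H2 zinc-finger genes 19 rose and 10 fell, of 160 chromatin modifiers 8 and 3, and of 332 ubiquitin enzymes 24 and 15. The more frequent direction also changed with median centring, to 12 and 20, 3 and 11, and 11 and 27. No called gene reversed its sign there. Leaving out 1 library gave 7, 3, 4 and 14 higher and 2, 4, 6 and 4 lower zinc-finger genes. For chromatin modifiers it gave 1, 0, 1 and 6 higher and 1, 1, 2 and 1 lower, and for ubiquitin enzymes 7, 4, 6 and 22 higher and 3, 2, 7 and 7 lower. Each of these 3 classes had a smaller called share than all tested genes. DTX3, an E3 ubiquitin ligase, fell from 10.4 and 12.3 TPM to 1.66 and 1.57 TPM (-2.24).

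Of 538 long non-coding RNAs 36 rose (6.69%) and 37 fell (6.88%), against 10.5% and 6.72% of all tested genes. Median centring gave 28 and 45, and without 1 library 21, 23, 19 and 27 rose and 23, 21, 28 and 29 fell. LINC00162 and ITGA9-AS1 were listed at 0 in both PC9 libraries and were at 3.91 and 7.52 TPM and at 5.40 and 3.88 TPM in PC9-BrM4, the 2 values of LINC00162 being unequal. PC9-AMG had 3.66 and 3.48 TPM of ITGA9-AS1, near PC9-BrM4. LINC00294 rose from 4.56 and 3.65 TPM to 19 and 16.4 TPM (1.88). LINC01234 fell from 26.5 and 30.8 TPM to 10.7 and 7.42 TPM (-1.58), and LINC01139 from 2.73 and 2.79 TPM to 0 in both PC9-BrM4 libraries.

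Called genes were spread unevenly over the chromosomes. On chromosome 21, 36 of 135 tested genes rose and 1 fell, TFF1, and 27.4% were called; the median log2 difference was 0.23 above that of all tested genes. The 4 pairs of a PC9-BrM4 and a PC9 library gave medians of 0.22 to 0.24 above all genes, and PC9-AMG against PC9 gave 0.02 to 0.08. Without 1 library 15 to 24 genes of the chromosome rose (16 with PC9 library 1 left out, 15 each with PC9 library 2 or PC9-BrM4 library 1 left out), the median staying between 0.20 and 0.23. With median centring 26 rose and 4 fell. Of the 36 genes 4 are ribosomal RNA genes, whose value in an mRNA library is uncertain, and CBS, U2AF1, ICOSLG and PWP2 have annotated copies; the last 3 are not among the 691. Among the 100 protein-coding genes with 1 row in the tables of the single libraries, a selection made after the data were seen, 22 rose and 1 fell, with a median of 0.19.

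Genes of the chromosome 21 list are named here after their values were seen. TMPRSS3, a serine protease of the membrane at 42371887 to 42396846 (hg38, as in the deposited tables), was at 9.93 and 9.98 TPM in PC9 and at 40.8 and 41.5 TPM in PC9-BrM4 (log2 difference 1.94, SE 0.12, adjusted p = 6.35e-06). The neighbouring gene TFF1 at 42362282 to 42366535, a trefoil peptide of mucosal secretions, went from 8.68 and 11.9 TPM down to 1.66 and 1.09 TPM (-2.25). TMPRSS2 was at 1.77 and 0.945 TPM and at 8.67 and 6.59 TPM (1.88), and IFNGR2, a chain of the interferon gamma receptor, rose from 71.9 and 71.5 TPM to 115 and 109 TPM (0.64). LSS, the lanosterol synthase gene, rose from 24.8 and 24.7 TPM to 49.9 and 44.6 TPM (0.90). Chromosomes 12 and 7 lay on the other side, with medians of -0.20 and -0.15 relative to all tested genes, and with 138 genes lower and 43 higher of 739, and 110 lower and 79 higher of 718. Median centring gave 184 and 29 on chromosome 12 and 143 and 54 on chromosome 7. Without 1 library 54, 53, 93 and 78 genes of chromosome 12 were lower and 21, 18, 18 and 38 higher, and 41, 43, 67 and 68 genes of chromosome 7 were lower and 36, 30, 36 and 56 higher. The medians stayed between -0.20 and -0.18 and between -0.15 and -0.12. Among the falls named above, IGFBP6, HNRNPA1, DTX3 and C1R lie on chromosome 12 and FLNC and IRF5 on chromosome 7. DENND2A and GARS, also on chromosome 7, rose, as did COL6A2 on chromosome 21. Whether the class counts follow the chromosomes was not tested. No value of gene copy number was used here.

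**Figure D4:**
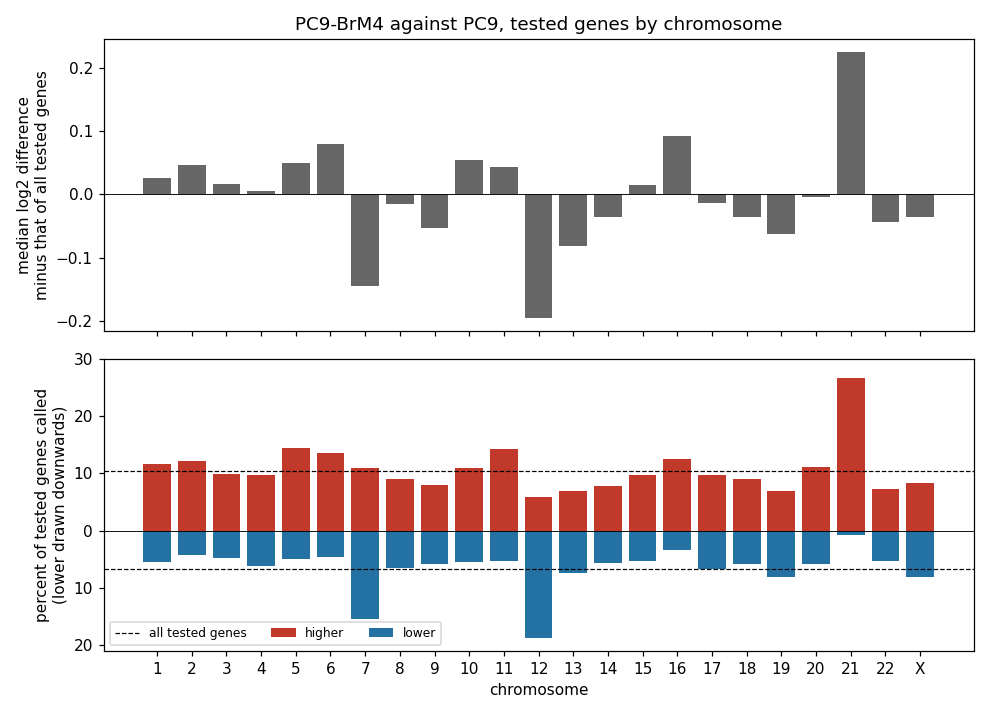
For each chromosome, the upper bars give the median log2 difference of its tested genes minus that of all tested genes, and the lower bars the percent of its tested genes called higher (upwards) or lower (downwards). Dashed lines mark 10.5% and 6.72%, the shares over all chromosomes; chromosome 21 has the tallest upward bar and chromosome 12 the deepest downward one.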

How the data were processed

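RNA of the cultured cells was extracted with TRIzol and made into stranded mRNA libraries, per the labels' protocols. Tools and build in the submitters' processing notes are HISAT2 2.1.0, StringTie 1.3.4d and hg38; the annotation is not given in the sources used here. TPM, the main unit, was computed by the authors and is deposited in a table over all libraries. FPKM and coverage per base come from the deposited library tables, FPKM as an alternative and coverage as a guide to depth.

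Genes were tested with limma 3.58.1 (R 4.3.3) on log2(TPM + 1), with group means fitted to all 6 libraries and a variance trend. Tests were two-sided, and p-values were adjusted over the 14333 genes (Benjamini-Hochberg). The fit was tested on simulated data. Named genes are the 25 largest rises and falls of at least 5 TPM, the 10 largest gains and losses in TPM, switched genes, up to 4 per class and direction, and fixed markers. Clone, locus, read-through and small-RNA names were not picked, and the text gives a selection. Classes came from symbols and hand-written members, and some were trimmed of misplaced symbols after values were seen. Members and lists were chosen with earlier results of these data known. Replicate numbers did not pair libraries (correlation of their deviations 0.048 between PC9 and PC9-BrM4). The named alternatives changed scaling, pseudocount, filter, unit, moderation, libraries or block. Gene coordinates are those of the deposited library tables (hg38), and promoters are RefSeq GRCh38.p14. Genes with several rows (590 tested) are uncertain: for 117 the deposited TPM over all libraries lies below the sum of their rows. Results for some genes and classes are not reported here.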

Additional observations from a re-analysis of the deposited data

How the results depend on the processing

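The number of called genes lay between 1781 and 2673 under the scaling, pseudocount, filter, moderation, unit and block alternatives against 2466, and between 1004 and 1768 with 1 library left out, where fewer samples enter. The count of genes with at least a 2-fold difference lay between 515 and 624 with 1 library left out against 615, and dropped to 387 with a filter of 5 TPM, under which fewer genes are tested, and to 362 with FPKM of the library tables, where the cause was not tested. With the replicate number as a block 2556 genes were called, 652 of them with a 2-fold difference; the pairing check gave correlations of 0.048, -0.059 and 0.0064, so the samples share only a number. Quantile normalization gave 1119 higher and 1285 lower genes, and TPM rescaled without the 100 highest genes 1186 and 1088. Of the 418 called genes that the naming rule picks, 0 reversed direction, 227 stayed called in every alternative, and 189 lost the call with some library left out. The unknown depth and 2 libraries a side limit the genes under 5 TPM most.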
